A study of Mus musculus with 5 samples.

Results

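Gpr65, its chromosome 12 neighbour Galc, and the proton-sensing receptor genes Gpr4 and Gpr132 were followed in cultured mouse mast cells that carry a miR-9 allele. They are 4 of the 25549 gene models in the authors' deposited table and were found there by symbol. Gpr65 and Galc were selected on their log2 fold changes and p-values in this same contrast, which were among the most extreme, so the values that follow describe them and test nothing. The line with the miR-9 allele was Cpa3-Cre;miR-9∆fl/∆fl (n = 3 samples), called the miR-9 line here, and the control was Cpa3-Cre (n = 2 samples), both in C57BL/6 mice matched for age and sex. All 5 samples therefore carried the Cpa3-Cre transgene, whose Cre recombinase is driven by the promoter of Cpa3, a carboxypeptidase gene of mast cells. The labels do not say whether recombination of the miR-9∆fl allele raises or removes miR-9. Cells had been grown from bone marrow for 6 to 8 weeks with 50 ng/mL recombinant interleukin-3 and were left untreated, and ribosome-depleted total RNA was sequenced in paired 50-base reads, a stated 70000000 or so for each sample. Whether the samples of a genotype are separate mice, separate cultures or repeats of a single culture is not stated, and the p-values measure only the spread between them, which may be technical.

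The table gives a log2 fold change, which is positive for a gene higher in the miR-9 line, a signed linear fold and a p-value for each gene. It also has 5 columns of values per library whose names cannot be tied to a sample, and these were not used. Levels, standard errors, the agreement of the samples within a group and the depth behind each gene were therefore not analysed here. A gene was called where its Benjamini-Hochberg adjusted p-value, taken over all 24071 rows with a p-value, was under 0.05. That threshold called 0.411 percent of the rows, 0.166 percent as lower in the miR-9 line and 0.245 percent as higher. The 24071 rows had a median log2 value of -0.09 in the authors' deposited table, and 59.8 percent of them were negative. In bulk RNA, fewer cells of a type and less RNA per cell cannot be told apart.

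Proton-sensing receptors are G protein-coupled receptors whose outward-facing histidines take up protons when the fluid around the cell turns acid. Gpr65, also called TDAG8, couples mainly to Gs and raises cyclic AMP, and it is known from lymphocytes, macrophages and eosinophils, where acid accumulates at inflamed sites. Gpr4 also raises cyclic AMP and is best known from blood vessel endothelium. Gpr132 is a weak acid sensor and, in human cells, also responds to oxidised fatty acids. Galc is unrelated to these receptors in function. It encodes galactosylceramidase, the lysosomal enzyme that removes galactose from galactosylceramide and psychosine, and its loss causes Krabbe disease in humans and the twitcher phenotype in mice.

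Gpr65 had the lowest log2 fold change of all 24071 rows with a p-value. It stood at -2.65 in the authors' deposited table, 6.27-fold lower in the miR-9 line (p = 1.23e-11, the third smallest in the table). The gene has 2 exons that sum to 2049 bases and lies on the plus strand of chromosome 12 from 98268635 to 98276624 (GRCm38). Its coding sequence sits wholly within exon 2. Galc stood at -2.16 in the authors' deposited table, 4.46-fold lower in the miR-9 line (p = 8.35e-13, the second smallest). It was the lowest but 10 by fold. Galc has 17 exons that sum to 3822 bases and lies on the minus strand from 98202304 to 98259459. The difference between the log2 fold changes of the pair was 0.49, and no error of that difference can be had from the table.

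The other acid receptor genes had values nearer to 0. Gpr4, on chromosome 7 from 19212538 to 19224176, stood at -0.36 in the authors' deposited table (unadjusted p = 0.269, Benjamini-Hochberg adjusted p = 0.853). This put it at or above 26.4 percent of the rows with a p-value. Gpr132 stood at -0.49 in the authors' deposited table, 1.40-fold lower, but has no p-value there, so that value cannot be set against the spread between samples. Rows without a p-value made up 5.78 percent of the table, and no source used here gives the reason for the empty cell. Of these 3 receptor genes, 2 had a p-value, 1 was called and 1 was not. Gpr132 also lies on chromosome 12, 14.6 Mb beyond Gpr65.

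**Figure D1:**
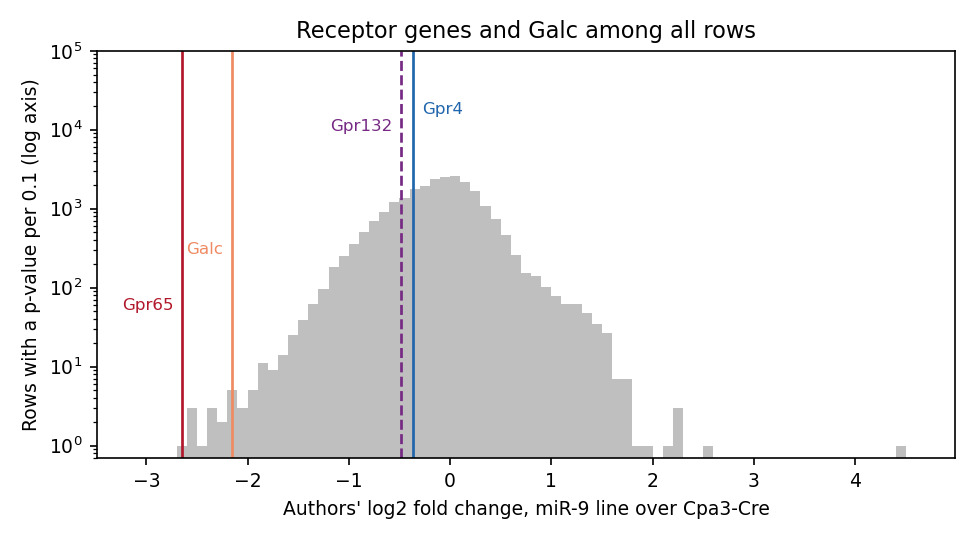
Histogram of the authors' log2 fold change, miR-9 line over Cpa3-Cre, for all 24071 rows with a p-value (counts per bin of 0.1 on a log axis), with vertical lines at the receptor genes and Galc; the dashed line marks Gpr132, which has no p-value. Gpr65 at -2.65 and Galc at -2.16 stand in the lower tail, and Gpr132 at -0.49 and Gpr4 at -0.36 lie within the bulk.

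Gpr65 and Galc are transcribed away from each other. Their annotated starts lie 9176 bases apart, and the intervening sequence holds no other row of the table. RefSeq's promoter windows on GRCm38.p6, from 250 bases before each start to 50 after it, are shown here because both genes of this pair had such low fold changes. The Gpr65 window is chr12:98268385-98268684 on the plus strand and the Galc window is chr12:98259410-98259709 on the minus strand, each written 5′ to 3′ along its gene. Capitals mark matches to the motifs searched.
Gpr65: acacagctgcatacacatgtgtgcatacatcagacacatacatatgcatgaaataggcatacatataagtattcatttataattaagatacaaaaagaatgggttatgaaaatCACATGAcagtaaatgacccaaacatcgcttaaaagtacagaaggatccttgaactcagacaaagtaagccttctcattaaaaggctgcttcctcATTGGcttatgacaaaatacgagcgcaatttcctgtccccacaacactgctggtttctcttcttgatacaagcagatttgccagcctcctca
Galc: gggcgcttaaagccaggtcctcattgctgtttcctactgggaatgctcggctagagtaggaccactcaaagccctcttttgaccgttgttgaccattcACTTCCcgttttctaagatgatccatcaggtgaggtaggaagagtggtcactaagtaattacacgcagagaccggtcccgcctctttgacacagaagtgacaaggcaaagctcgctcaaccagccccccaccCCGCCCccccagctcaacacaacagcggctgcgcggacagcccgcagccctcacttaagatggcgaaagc

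The windows differed in base composition. The Gpr65 window was 38.3 percent G and C with 3 CpG dinucleotides, a GC content that only 7.92 percent of 32817 RefSeq windows matched or fell below. The Galc window was 55.7 percent G and C with 14 CpGs, against medians of 52.7 percent and 7 over all windows. By comparison the Gpr4 window had 64.0 percent and the Gpr132 window 57.7 percent, so Gpr65 had the least G and C of these genes. Searching both strands for 8 motifs, chosen with the sequences in view, found no motif in both windows of the pair. The Gpr65 window held the M-box TCATGTG, a sequence bound by the mast cell regulator MITF, once on the reverse strand 137 bases before the start; 3.78 percent of all windows hold it. It also held a CCAAT box (CCAAT, 37.4 percent of all windows) 42 bases before the start. The Galc window held the ETS motif ACTTCC (23.8 percent) and a GC box (GGGCGG, 35.6 percent). Neither window of the pair held the E-box CACGTG, the cyclic AMP response element TGACGTCA, the GATA motif GATAAG or the AP-1 motif TGANTCA, which are found in 7.15, 1.79, 7.45 and 7.81 percent of all windows. The matches shown do not overlap, and a match says only that the letters are present.

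No other gene close to the pair was called. Within 1 Mb of the span from Galc to Gpr65 the table holds 8 other rows, of which 7 have a p-value. Of these, 0 were called, where 0.411 percent of all rows were. An unadjusted p under 0.05 was found for 0, against 7.92 percent of all rows. With so few rows, counts of 0 lie near those shares and say nothing particular about the neighbours. All 8 lie on the Gpr65 side. The nearest row, Spata7, a gene of photoreceptor cilia, begins 352 kb beyond Gpr65 and stood at -0.22 in the authors' deposited table (unadjusted p = 0.503). The phosphatase gene Ptpn21 stood at -0.33 (p = 0.177), the poly(A)-binding protein gene Zc3h14 at -0.02 (p = 0.931) and the microtubule-associated gene Eml5 at -0.19 (p = 0.631) in the authors' deposited table. The Bardet-Biedl gene Ttc8 stood at -0.24 (p = 0.616), the forkhead gene Foxn3 at -0.30 (p = 0.177) and the pseudogene Gm19898 at 0.22 (p = 0.678) in the authors' deposited table, while the pseudogene Rpl30-ps8 stood at 0.15 without a p-value. The lowest of these values, -0.33, is small beside the -2.16 of Galc. Negative values were found for 6 of the 7 with a p-value, with a median of -0.22, against -0.09 over all rows. Within 2 Mb there were 20 other rows, 18 with a p-value, and again 0 were called, against the same 0.411 percent. The smallest p-value there belonged to Efcab11, an EF-hand gene 1441 kb beyond Gpr65, which pointed the other way at 1.11 in the authors' deposited table (unadjusted p = 0.000671, adjusted p = 0.0860). On the whole of chromosome 12, 4 of 802 rows with a p-value were called, 0.499 percent. They were Gpr65 and Galc as lower, and Ston2 (0.89) and Ncapg2 (1.37) as higher, in the authors' deposited table.

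**Figure D2:**
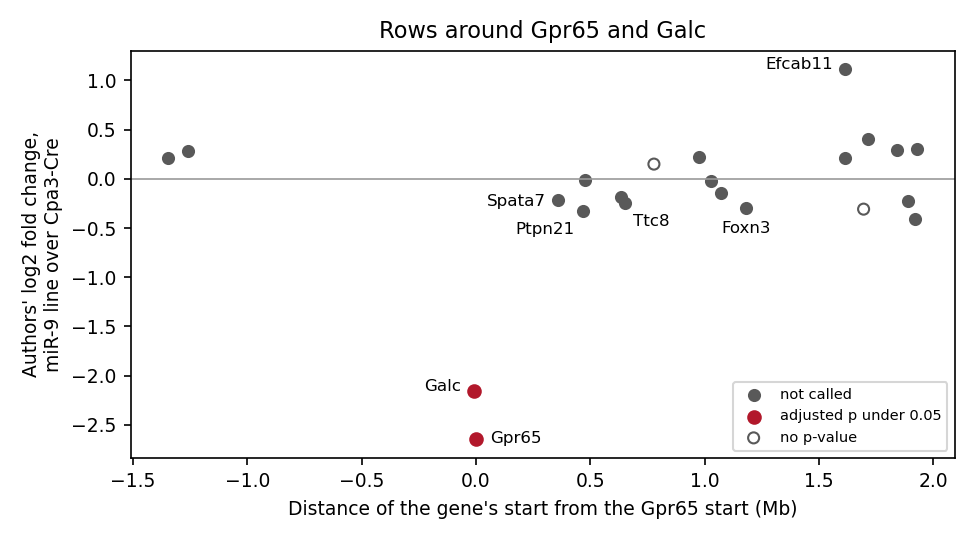
Authors' log2 fold change, miR-9 line over Cpa3-Cre, of each row within 2 Mb of the Galc to Gpr65 span, against the distance of its start from the Gpr65 start in Mb; red points are called, grey points are not, and open points have no p-value. Galc at -2.16 and Gpr65 at -2.65 sit apart, and the other rows lie between -0.41 and 1.11.

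Galc and Gpr65 were set beside the other head-to-head neighbours of the table. Among adjacent protein-coding rows, 1102 pairs were transcribed away from each other with starts within 10 kb and a p-value for both genes. In 14 of these pairs 1 gene was called, and in 1 pair, Galc and Gpr65, both were. Of the 2204 genes in these pairs 16 were called, or 0.726 percent, against 0.534 percent of all protein-coding rows with a p-value. The pair was chosen for its fold changes, so this count describes it and supports nothing. Typical pairs were much closer together, with a median distance between starts of 546 bases. Their log2 fold changes differed by a median of 0.27, against 0.49 for Galc and Gpr65, and had the same sign in 646 pairs. In a pair with 1 called gene the neighbour could lie near 0. Cks1b encodes a subunit of cyclin-dependent kinases, and its start lies 60 bases from that of Shc1; it rose by 1.44 in the authors' deposited table, while Shc1 stood at 0.03.

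**Figure D3:**
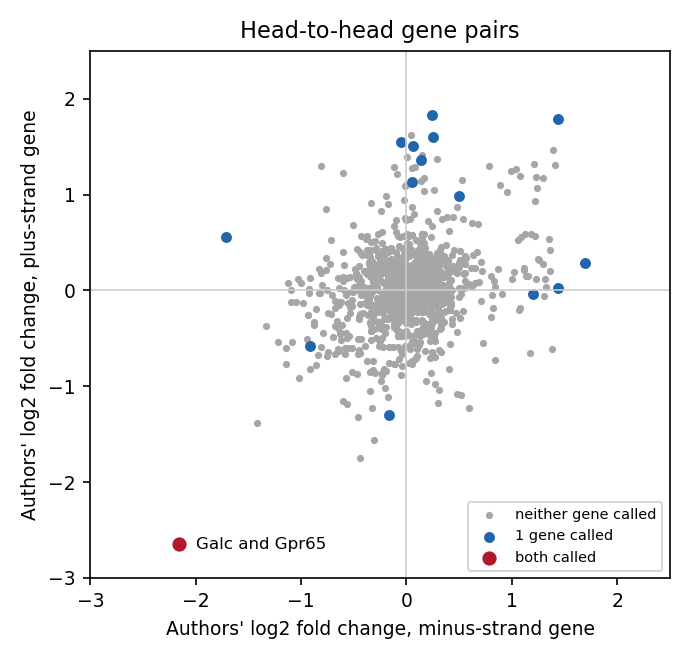
Authors' log2 fold change, miR-9 line over Cpa3-Cre, of the plus-strand gene against that of the minus-strand gene in 1102 head-to-head pairs with starts within 10 kb; colours mark how many genes of the pair were called. Galc and Gpr65 are the red point at the lower left, and the 14 pairs with 1 called gene are blue.

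Both genes overlap antisense gene models in GENCODE M21. Gm47566, on the minus strand, shares 511 bases with the exons of Gpr65, from 98274732 to 98275542, which include 288 coding bases. Gm47439, on the plus strand, covers exon 1 of Galc from 98259135 to 98259459 and so shares 325 exon bases, which include 195 coding bases. Neither has a row of its own in the table. The libraries were strand-marked, but no source used here says whether strand entered the counting, so reads of the antisense models cannot be told apart from those of Gpr65 and Galc. The shared bases were 24.7 percent of the Gpr65 transcript and 8.48 percent of the Galc transcript.

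The miR-9 seed was searched for in the 3' UTRs of the genes. Both arms of the hairpin are shown as RefSeq gives them on GRCm38.p6, the same from each of the 3 loci on chromosomes 3, 7 and 13, with the seed (bases 2 to 8) in capitals.
mmu-miR-9-5p: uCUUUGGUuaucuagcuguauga
mmu-miR-9-3p: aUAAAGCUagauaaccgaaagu

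None of the longest annotated 3' UTRs of Gpr65 (541 bases), Galc (1647), Gpr4 (922) and Gpr132 (1183) held the 7-base match to either arm. Over 21037 annotated 3' UTRs, 12.2 percent hold ACCAAAG, the match to miR-9-5p, and 11.3 percent hold AGCTTTA, the match to miR-9-3p. A match to bases 2 to 7 alone was present in Galc for miR-9-5p and in Gpr65 for miR-9-3p, as shown here with the match in capitals, on the strand of each gene. The Galc site is chr12:98202405-98202426 on the minus strand and the Gpr65 site is chr12:98276218-98276239 on the plus strand.
Galc, miR-9-5p: aggttttgCCAAAGtggtacac
Gpr65, miR-9-3p: ctatgttgGCTTTAttaagtaa

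Such 6-base matches are common, in 34.5 percent of the 3' UTRs for miR-9-5p and 28.1 percent for miR-9-3p. The absence or presence of these letters alone does not show whether miR-9 binds, which was not tested.

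The pathways on either side of these genes were read from 9 gene lists with 172 genes in the table. Other than Gpr65 and Galc, 145 of them had a p-value and 0 were called, where 0.411 percent of all rows were. At an unadjusted p under 0.05 there were 13, or 8.97 percent, against 7.92 percent of all rows; 12 of the 13 were lower in the miR-9 line, or 8.28 percent of the 145 against 4.05 percent of all rows, and 1 was higher, or 0.690 percent against 3.87 percent. The 145 genes had a median of -0.15 in the authors' deposited table, and 95 of them, or 65.5 percent, were negative, against a median of -0.09 and 59.8 percent of all rows with a p-value. In the sentences that follow no gene passed the adjusted threshold unless that is stated, and the 3 with the smallest p-values of each list are named.

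Acid-sensing channels offer a second way to detect protons. Of 11 with a p-value 0 were called and 10 were negative, with a median of -0.14 in the authors' deposited table. The acid-inhibited potassium channel gene Kcnk3 stood at -1.04 (p = 0.0471), the capsaicin and acid receptor gene Trpv1 at -0.87 (p = 0.0964) and the acid-sensing channel gene Asic2 at -0.57 (p = 0.208) in the authors' deposited table. Hvcn1, the voltage-gated proton channel gene, stood at -0.50 there without a p-value. Genes that move acid out of cells were spread around 0. Among 21 with a p-value, 9 were negative and 12 positive, with a median of 0.03 in the authors' deposited table. The lactate transporter genes Slc16a7 (MCT2) and Slc16a1 (MCT1) pointed in opposite directions, at -1.11 (p = 0.00304) and 0.99 (p = 0.00366) in the authors' deposited table, and the adjusted p-values were 0.185 and 0.199. The sodium-proton exchanger gene Slc9a7 stood at -0.85 in the authors' deposited table (unadjusted p = 0.0255).

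Gs and cyclic AMP components, which act below Gpr65 and Gpr4, lay close to the background. All 36 had a p-value, 0 were called and 0 had an unadjusted p under 0.05. Their median was -0.03 in the authors' deposited table, with 20 negative, and it was 0.06 once the median of all rows was subtracted. Gnas, which encodes the Gs alpha subunit, stood at 0.18 (p = 0.521) in the authors' deposited table. The cyclic AMP-regulated exchange factor gene Rapgef3 stood at 0.71 (p = 0.0872), Gnal, for a Gs-like alpha subunit, at -0.70 (p = 0.111) and the adenylyl cyclase gene Adcy1 at -0.86 (p = 0.111) in the authors' deposited table. Other Gs-coupled receptor genes, which share the second messenger of Gpr65, had 12 with a p-value, 0 called and a median of -0.28 in the authors' deposited table. The melanocortin receptor gene Mc1r stood at 0.72 (p = 0.110), the histamine receptor gene Hrh2 at 0.48 (p = 0.124) and the adenosine receptor gene Adora2b at -0.59 (p = 0.161) in the authors' deposited table.

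The lists of phosphodiesterase and CREB-responsive genes had lower medians. Of 12 phosphodiesterase genes with a p-value, whose products break cyclic AMP down, 10 were negative and 0 were called, with a median of -0.47 in the authors' deposited table. Unadjusted p-values under 0.05 were found for 4, all lower in the miR-9 line, where 4.05 percent of all rows were. They were Pde10a at -1.35 (p = 0.0119), Pde3a at -1.35 (p = 0.0126), Pde11a at -1.13 (p = 0.0298) and Pde7a at -0.51 (p = 0.0468) in the authors' deposited table. Of the genes listed as CREB-responsive, 14 had a p-value and 0 were called. All 14 were negative, where 59.8 percent of all rows with a p-value were. Their values ran from -1.32 to -0.32, with a median of -0.64 in the authors' deposited table. Ppargc1a, a coactivator of mitochondrial genes, stood at -1.32 (p = 0.00708), the clock gene Per1 at -0.88 (p = 0.0233) and the inhibitor of differentiation gene Id1 at -0.80 (p = 0.0504) in the authors' deposited table, and the adjusted p-values were 0.288, 0.487 and 0.634. The same genes answer many signals besides cyclic AMP, and the part of cyclic AMP or CREB in these values was not tested. Of the 21 in the table, 7 have no p-value, among them Nr4a1, Dusp1 and Areg.

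Galc, selected on its values in this contrast, was the 1 called gene among the enzymes of its pathway. The list of glycosphingolipid breakdown had 25 genes with a p-value, 1 called as lower, Galc itself, and 0 as higher. Of the other 24, 0 were called, where 0.411 percent of all rows were. These 24 had a median of -0.05 in the authors' deposited table, with 13 negative. Acer2, an alkaline ceramidase gene, stood at -1.25 (p = 0.00724) and Smpd2, a neutral sphingomyelinase gene, at -0.54 (p = 0.00977) in the authors' deposited table, and the adjusted p-values were 0.290 and 0.341. Psap, whose saposin products assist galactosylceramidase, stood at -0.12 there without a p-value. The list of ceramide and galactosylceramide synthesis also holds genes that make other lipids, such as St3gal5 and Sgms1. It had 15 with a p-value, 0 called, 11 negative and a median of -0.12 in the authors' deposited table. St3gal5, the sialyltransferase gene that makes ganglioside GM3, stood at -1.03 (p = 0.00297, adjusted p = 0.183), the fatty acid hydroxylase gene Fa2h at -0.69 (p = 0.153) and the sphingomyelin synthase gene Sgms1 at -0.23 (p = 0.247) in the authors' deposited table.

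**Figure D4:**
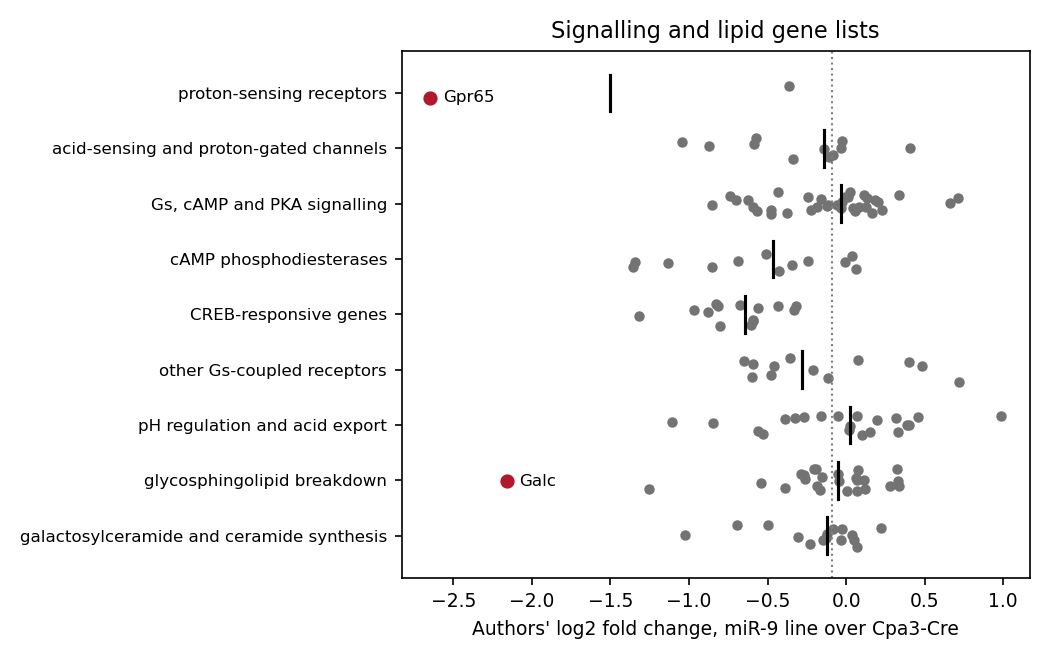
Authors' log2 fold change, miR-9 line over Cpa3-Cre, of each gene with a p-value in 9 lists; black bars are list medians, the dotted line is the median of all rows (-0.09), and red points are called. Gpr65 and Galc are the 2 called genes, and the CREB-responsive genes lie wholly to the left, from -1.32 to -0.32.

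Other cells that use Gpr65 could be present in bone marrow cultures, so their markers were read beside it. Of 23 markers of T and NK cells, B cells, monocytes and macrophages, eosinophils, basophils and neutrophils, 20 had negative values in the authors' deposited table, 8 had a p-value and 0 were called. Their median was -0.09, the same to 2 decimals as that of all rows, of which 60.7 percent were negative. That median takes in the 15 markers without a p-value, where 5.78 percent of all rows lack one. Some of these lay almost at 0 in the authors' deposited table, such as Prg2 at -0.0003 and S100a8 at -0.0007, while Emr1 stood at -0.71. The pooled median can therefore not be read as a measure of other cells. Those with a p-value had medians of -0.58 (3 T and NK cell markers), -0.52 (2 B cell markers) and -0.41 (2 eosinophil markers). The 1 basophil marker with a p-value stood at 0.16 in the authors' deposited table. With every marker counted, group medians were -0.55 (T and NK cells), -0.52 (B cells) and -0.18 (eosinophils) in the authors' deposited table. They were -0.10 for monocytes and macrophages, 0.14 for basophils and -0.0017 for the 5 neutrophil markers. The T cell gene Cd3d was the lowest, at -1.03 (p = 0.00887, adjusted p = 0.325), in the authors' deposited table. All 6 monocyte and macrophage markers, among them Csf1r and Lyz2, and all 5 neutrophil markers lacked a p-value. The summed levels of these markers were not analysed here, and their part in the values of Gpr65 was not tested. All 10 mast cell markers had a p-value, with a median of 0.10, and 1, the tryptase gene Tpsb2, rose by 1.60 in the authors' deposited table, where its Benjamini-Hochberg adjusted p was 0.0149.

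By fold alone, the rows with a p-value nearest to Gpr65 were Gucy1a3, Hs3st5, Fgr, Lpar4 and Gm14950. Their log2 fold changes lay within 0.29 of its value, from -2.59 to -2.36 in the authors' deposited table. This likeness rests on a single contrast of 2 groups. Lpar4, a lysophosphatidic acid receptor gene, was the 1 other G protein-coupled receptor gene among them.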

How the data were processed

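Bone marrow-cultured mast cells of 2 genotypes were compared by RNA sequencing. The data are 1 table of 25549 gene models. The submitters' processing notes name the builds GRCm38 and mm10 and the tools DESeq, DESeq2, Cuffdiff, HTSeq and STAR. No source used here gives their versions, roles, filters, shrinkage of folds or use of strand. Per the file headers, the authors deposited a log2 fold change, the same value as a signed linear fold (a score in which negative folds mean lower in the miR-9 line; its size equals 2 raised to the absolute log2 value, within 0.001, and its sign is that of the log2 value, for 100 percent of rows), a p-value per gene (empty in 1478 rows) and a gene length.

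The 5 columns of values per library were not used, because their names match no sample. The planned count test was therefore replaced by the authors' p-values, adjusted here by the Benjamini-Hochberg method with statsmodels 0.14.6 (Python 3.11.15, pandas 2.3.3) and tested on simulated data. Called means an adjusted p under 0.05. GENCODE M21 (GRCm38) gave gene classes for 23720 rows by symbol and chromosome, exons and 3' UTRs; RefSeq gave promoters and microRNAs, with a promoter for all 4 genes. Symbols shared by several rows, such as Pde4d, were left out of lists, and some planned items are not reported here. The genes and lists were chosen with earlier results of these data known. Named genes were the 4 genes, every row within 1 Mb, the called members and the 3 smallest p-values of each list, and the 5 rows nearest to Gpr65 in fold; other genes were named after their values were seen. Depth is unknown beyond the stated reads.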

Additional observations from a re-analysis of the deposited data

How the results depend on the processing

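Gpr65 and Galc were called, and Gpr4 was not, at every threshold tried: an unadjusted p under 0.0001, an adjusted p under 0.10, the Benjamini-Yekutieli adjustment and adjustment over protein-coding rows only. Each threshold used the same deposited p-values, on which Gpr65 and Galc had been selected. Their calls were therefore fixed in advance and test nothing. Over the whole table, the genes called higher and lower numbered 59 and 40 as reported, 38 and 34 at an unadjusted p under 0.0001, 165 and 68 at an adjusted p under 0.10, 11 and 13 by Benjamini-Yekutieli, and 77 and 39 over protein-coding rows. Subtracting the median of all rows, -0.09, gave Gpr65 -2.56, Galc -2.07, Gpr4 -0.27 and Gpr132 -0.40, and turned the medians of 2 lists positive: Gs, cyclic AMP and PKA signalling (0.06) and glycosphingolipid breakdown (0.04). No neighbour within 0.5, 1 or 2 Mb was called at an adjusted p under 0.05, where 0.411 percent of all rows were. With the 6-base seed match, 1 of the 4 genes held a match to each miR-9 arm, against 0 with the 7-base match; the shorter match is met more often by its construction. No paired analysis was possible because the columns of values per library carry no replicate numbers. Leaving out replicates, another normalization and a filter on low values were planned and not run, because those columns could not be assigned to samples and were not used.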
